A study of Homo sapiens with 13 samples.

Results

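Long runs of accessible regions that H82 cells held and H146 cells lacked were mapped across 21 chromosomes (1 to 13 and 15 to 22). A run was a stretch of at least 15 neighbouring H82 regions with 0 bp of overlap to any H146 region and with no H146 region lying between them. The rule found 72 runs that held 1511 of the 195594 H82 regions on these chromosomes. With the lines exchanged it found 0 runs among the 165752 H146 regions. When the H82 atlas was reduced to its widest regions, as many as H146 has, there were 43 H82 runs and 2 H146 runs. The members were chosen by the overlap of the atlases itself, so their number, their length in regions and the absence of H146 regions inside them are given as a description, with no test.

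ATAC-seq, in which the transposase Tn5 cuts and tags open DNA, was carried out on H82 and H146, both established lines of human small cell lung cancer (SCLC). The H82 line is of the SCLC-N subtype, named for the transcription factor NEUROD1, and H146 is of another neuroendocrine subtype. Cells of the H82 line were untreated (n = 3) or received FHD-286, a drug that blocks SMARCA4 and SMARCA2, the ATPases of SWI/SNF chromatin remodelling complexes, for 14 days at 100 nM (n = 3), and cells of the H146 line were likewise untreated (n = 4) or given the same dose for the same time (n = 3). The libraries of a line were pooled into 1 atlas, a list of region starts and ends on hg38 with no height, read count or library of origin. Each line stands for 1 tumour and is the sole line of its subtype here, so line and subtype cannot be told apart. An atlas without replicates gives no test and no error, the depth behind it is unknown, and sites open before and after FHD-286 cannot be told apart. A region that is missing in H146 may be closed, may fall short of the caller's threshold, or may lie in DNA with fewer copies in H146 or more in H82, and these cannot be told apart from region lists. As a check of the labels, NEUROD1 had a region within 1 kb of its transcription start site (TSS) in H82 alone. INSM1, SYP and CHGA had one in both lines. The blood cell genes PTPRC and CD3E had none in either line, while the stromal gene COL1A1 and the endothelial gene PECAM1 had one in both.

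Open regions away from promoters are mostly enhancers, where transcription factors displace nucleosomes. Genes that fix the identity of a cell are often surrounded by many such sites, spread over their introns and over neighbouring gene-poor DNA. NEUROD1 and OLIG2 belong to the basic helix-loop-helix factors, which bind the E-box, and OTX2 is a homeodomain factor of the developing brain whose preferred word is TAATCC.

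The DNA of 5 runs is shown to give an idea of what such a region holds. Each sequence is the central 150 bases of the region with the most matches to CAGATG (an E-box) or TAATCC in its run, among regions outside promoters and exons with no 31-base word that recurs in the reference. They were picked for these words and are therefore no evidence about them. The ALK sequence lies at chr2:29733313-29733462, in an intron of ALK and in a region of 389 bp. The PRDM16 sequence, chr1:3017000-3017149, is intergenic, in a region of 245 bp upstream of PRDM16 and nearer to ACTRT2. The PAX7 sequence at chr1:18805469-18805618 is intergenic as well and comes from a region of 1733 bp. The OLIG2 sequence, chr21:33033090-33033239, lies in a long noncoding RNA gene, in a region of 1530 bp. The NTRK3 sequence, chr15:87764672-87764821, is intergenic, outside NTRK3, in a region of 1189 bp. All are read 5′ to 3′ on the plus strand of hg38, and capitals mark either word on either strand.
ALK: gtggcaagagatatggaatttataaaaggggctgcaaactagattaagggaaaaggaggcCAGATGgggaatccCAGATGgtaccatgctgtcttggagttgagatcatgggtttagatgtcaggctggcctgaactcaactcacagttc
PRDM16: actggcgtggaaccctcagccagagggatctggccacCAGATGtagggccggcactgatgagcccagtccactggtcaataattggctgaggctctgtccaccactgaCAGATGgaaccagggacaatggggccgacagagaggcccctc
PAX7: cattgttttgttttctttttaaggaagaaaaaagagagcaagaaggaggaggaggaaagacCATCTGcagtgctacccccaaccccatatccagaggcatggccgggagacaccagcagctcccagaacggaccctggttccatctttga
OLIG2: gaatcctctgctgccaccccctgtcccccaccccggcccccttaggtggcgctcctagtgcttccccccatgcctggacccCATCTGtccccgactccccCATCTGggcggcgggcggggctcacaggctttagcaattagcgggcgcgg
NTRK3: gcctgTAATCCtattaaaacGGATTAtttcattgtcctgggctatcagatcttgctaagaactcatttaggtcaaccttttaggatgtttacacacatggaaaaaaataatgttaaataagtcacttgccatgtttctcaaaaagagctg

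The E-box stood in 4 of these sequences and TAATCC in the one from the NTRK3 run. Over all 1511 run regions, 19.7% had CAGATG in their central 150 bases, against 20.3% of the other 77260 H82 regions absent in H146 and 11.9% of the 116823 H82 regions shared with H146. For TAATCC the shares were 15.7%, 23% and 5.88% in that order. Over whole regions, TAATCC occurred 0.929 times per kb in run regions, 1.28 in other H82 regions absent in H146, and 0.470 in shared ones, and it exceeded the value of those other regions in 20 of 72 runs. CAGATG occurred 1.22, 1.26 and 0.827 times per kb. For the E-box the run regions thus lay near the other regions absent in H146, for TAATCC below them, and for both words above shared regions. TAATCC is also part of the common Alu repeat, and sequence that recurs in the reference made up 11.6% of 31-base words in run regions and 15.1% in other H82 regions absent in H146; its part in the difference was not tested. CAGCTG (0.853, 0.827 and 0.832 per kb), the forkhead word TGTTTAC (0.120, 0.127 and 0.159) and the AP-1 word TGACTCA (0.201, 0.193 and 0.207) had values for run regions near those of other H82 regions absent in H146, and the forkhead word lay below shared regions in both. Words were counted on both strands, CAGCTG being its own reverse complement, and a match describes the letters and not a bound site.

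On these chromosomes 78771 of the 195594 H82 regions (40.3%) had no overlap with H146, and 48804 of the 165752 H146 regions (29.4%) had none with H82. H82 held more of the regions that count towards a run. It had fewer libraries than H146 and the depth of either atlas is unknown. The part of library number or depth in this difference was not tested. Regions inside runs made up 1.92% of the H82 regions absent in H146. The 78771 regions fell into 43263 stretches, of which 26286 were a lone region, 14732 held 2 to 4, 1939 held 5 to 9 and 234 held 10 to 14. Above the threshold, 38 runs held 15 to 19 regions, 24 held 20 to 29 and 10 held 30 to 45. Mean stretch length was 1.82 regions. In H146 there were 36054 stretches with a mean of 1.35 regions, and the longest had 13.

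**Figure D1:**
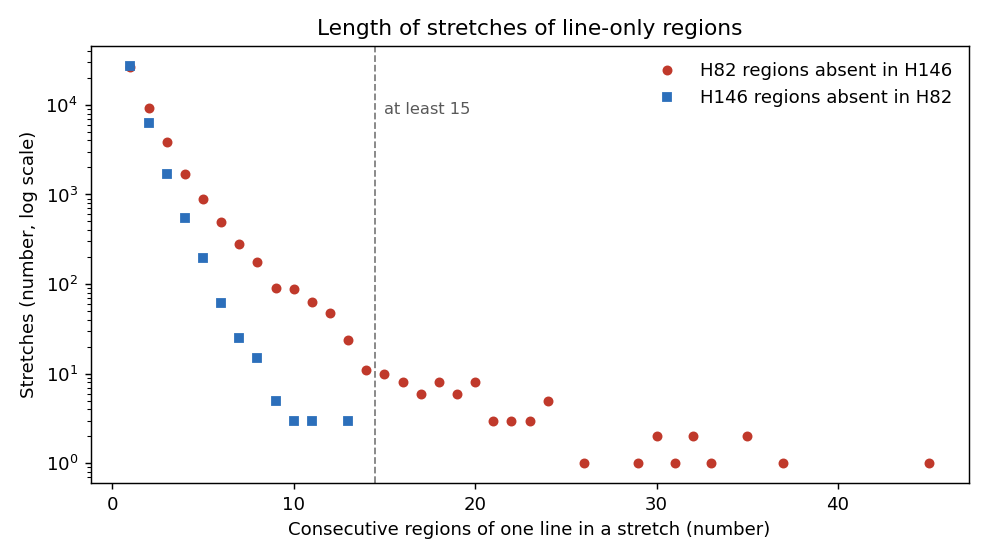
Number of stretches (log scale) against the number of consecutive regions in a stretch, for H82 regions absent in H146 (circles) and H146 regions absent in H82 (squares); the dashed line marks the minimum of 15. H82 stretches reached 45 regions and H146 stretches 13.

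The threshold of 15 did not mark a break in the data. Just outside it were 11 H82 stretches of 14 regions, with spans of 23.5 to 711 kb (median 108), a median of 7.52% of the span covered by regions and a median gap of 5.32 kb. They lay, among others, at RUNX3, RYR2, GNB1 and HSPG2. Just inside were 10 runs of exactly 15, with spans of 45.0 to 331 kb (median 122), 7.52% covered and a median gap of 4.49 kb. Among them were the runs at SPSB1, AKNA, PRTG, TNIK and PLPPR5. Width medians were 411 bp outside and 444 bp inside.

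The longest H146 stretches show what the exchanged rule came closest to. The 3 of 13 regions were at chr3:13661606-13792281, with no protein-coding gene, at TENM3, a teneurin of neuronal wiring (chr4:182209284-182275228, 65.9 kb), and at SMN2 (chr5:70071053-70213560, 143 kb). SMN2 has a near-identical copy, SMN1, so the place of its regions is uncertain. NFIB, a transcription factor gene known for its gain in SCLC, held 2 stretches of 11 (chr9:14216520-14246548 and chr9:14283557-14308656). Another 11 lay at KCNC1 and SERGEF, and stretches of 10 at GPR139, at TCF4 and on chromosome 2.

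The 72 runs spanned 31.8 to 1215 kb, with a median of 199 kb and quartiles of 91.6 and 335 kb, and together 19.0 Mb. Open regions covered 0.899 Mb of this, or 4.73%, so most of a run was DNA between regions. The covered share went from 0.732% to 44.9% (median 6.48%). The interval free of H146 regions around a run was 33.9 to 1285 kb long, with a median of 216 kb. At the density of H146 regions on its chromosome, this H146-free interval would hold a median of 12.2 H146 regions (1.13 to 63.5), and the intervals together 1168. This number follows in part from the rule and describes how much H146-free DNA a run took up. An H146 region closes each run by rule. Within 1 Mb of the ends there were 7.50 to 116 H146 regions per Mb (median 40.8), and the value was under that of the chromosome in 50 of 72. H82 regions of the flanks overlapped H146 in 17.9% to 63.9% of cases, with a median of 35.0%, against 59.7% of all H82 regions on these chromosomes. Flanks start at the ends of a run, so they take in the rest of its H146-free interval and any neighbouring run. Their values are thus not independent of the rule.

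**Figure D2:**
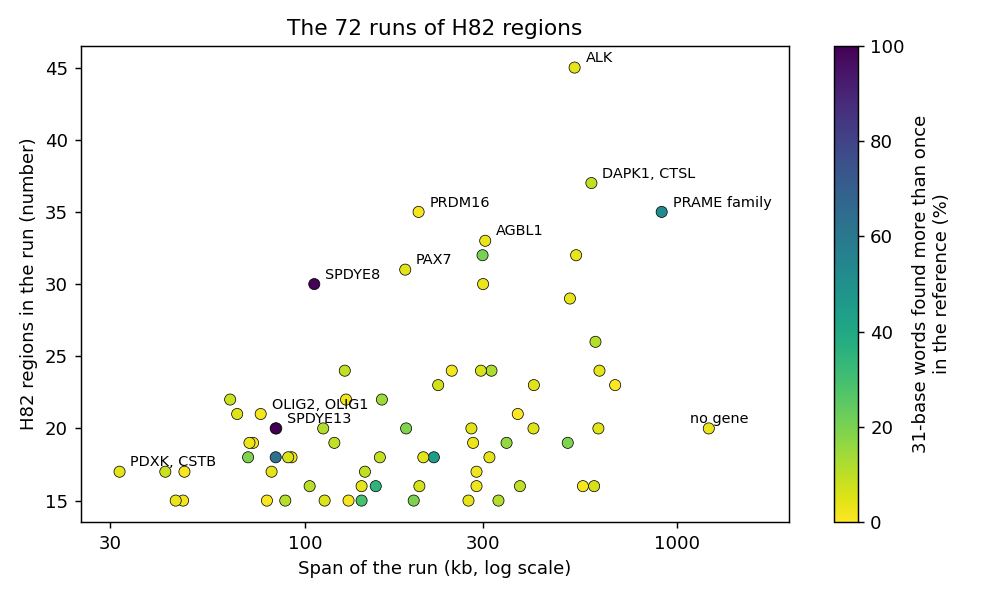
Each of the 72 runs by its span (kb, log scale) and its number of H82 regions, coloured by the share of 31-base words in its regions that recur in the reference (%). The run at ALK holds the most regions (45) and the SPDYE and PRAME family runs stand out by recurring sequence.

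The typical gap inside runs was like that elsewhere. The gap between neighbours was a median of 5.01 kb (quartiles 1.71 and 14.2, n = 1439), against 5.32 kb (1.86 and 14.3) between all neighbouring H82 regions and 5.01 kb (1.78 and 13.8) between neighbouring H82 regions absent in H146 outside runs. Gaps under 1 kb made up 13.3% in runs and 12.2% over all H82 neighbours. Of the gaps in runs, 13 were over 100 kb and the longest was 229 kb. Runs differed among themselves far more than this: the median gap of a run was 1.02 kb at PDXK and CSTB and 26.2 kb at SLIT3. By density, H82 regions in a span numbered 16.5 to 535 per Mb (median 106), above the chromosome's own value in 50 of 72 runs. They also exceeded the value within 1 Mb of the ends (median 70.2 per Mb) in 50 of 72. The rule favours dense stretches, so density is not independent of it.

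Run regions were slightly wider than other H82 regions absent in H146. Their median width was 406 bp (quartiles 270 and 690), against 374 bp (259 and 594), and 609 bp (356 and 1193) for shared regions. The median of a run lay above that of the regions outside in 52 of 72 runs, between 272 bp in a PRDM16 run and 641 bp at DOT1L, a histone H3 methyltransferase. At least 1 kb was reached by 14.4% of run regions, 9.62% of other H82 regions absent in H146 and 30.9% of shared ones. At 2 kb or more the shares were 2.58% (39 regions), 1.29% and 10.7%. The narrowest class, 200 bp exactly, held 9.33%, 9.50% and 4.24%. The widest run region measured 5968 bp and lay in the run over APBA2 and ENTREP2. Widths are those of merged calls, since calls within 500 bp had been joined.

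By the position of its centre, a run region was in an intron of a protein-coding gene in 54.1% of cases (818), intergenic in 28.7% (433), in a long noncoding RNA gene in 11.6%, in an exon in 3.71% and within 1 kb of a protein-coding TSS in 1.92% (29). For other H82 regions absent in H146 the shares were 46.7%, 33.7%, 12.7%, 5.55% and 1.36%, and for shared regions 38.2%, 32.3%, 12.9%, 5.94% and 10.7%. Introns thus held more of the run regions and promoters few in either class absent in H146. Median GC content was 49.5% in run regions, 48.4% in other H82 regions absent in H146 and 51.0% in shared regions. Between runs the GC content of the regions went from 40.2% in the run with the longest span, on chromosome 5, to 64.5% in the first PRDM16 run.

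The spans of the 72 runs overlapped 111 protein-coding genes. In 13 runs there was none, 40 runs touched 1 gene, 23 lay wholly inside 1 gene, and in 44 at least 50% of the regions were in the same gene. The genes were long: those in spans with 10 or more H82 regions (52 genes) had a median length of 260 kb, against 155 kb over all 3240 genes with as many. Choosing genes by overlap with long spans favours long genes, so this difference is not independent of the choice. Of these 52 genes, 5 had 0 H146 regions anywhere in the gene (ATP10A, DAPK1, ERCC6L2, PAX7 and SHISA6), while among all 3240 there were 6 (0.185%). The other 47 had a median of 5.78 H82 regions for each H146 region, and the median of all such genes was 1.27. The runs themselves enter these values. Outside the runs, H82 regions outnumbered H146 regions in 40 of the 52 genes, equalled them in 10 and were fewer in 2. The 10 include the 5 genes without H146 regions, whose H82 regions all lay in runs. No such count was made over all 3240 genes, so these numbers have no background beside them.

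**Figure D3:**
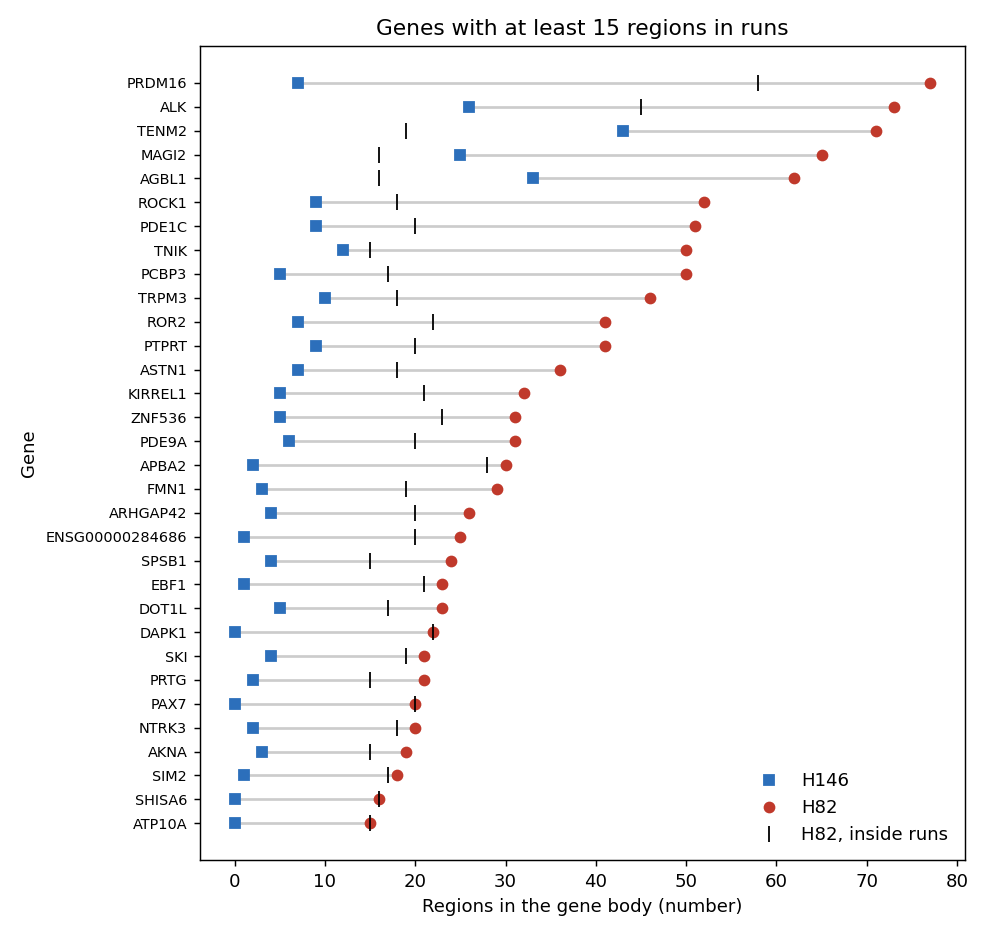
Regions per gene body (number) for the protein-coding genes with at least 15 run regions: H146 (squares), H82 (circles) and the H82 regions inside runs (vertical ticks). PRDM16 had the most H82 regions (77, with 7 in H146), and DAPK1, PAX7, SHISA6 and ATP10A had 0 in H146.

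ALK, a receptor tyrosine kinase of the developing nervous system, held the run with the most regions. All 45 lay in introns of ALK, over 530 kb (chr2:29386834-29916890), with a median width of 522 bp and a median gap of 4.20 kb. The H146-free interval around the run, 565 kb, would hold 33.6 H146 regions at the density of chromosome 2. The gene was not closed in H146: it had 26 H146 regions and 73 H82 regions in all, of which 28 H82 regions lay outside the run, and the TSS, just beyond the right end, had a region in both lines. The nearest H146 regions were 31.6 kb to the left and 3.28 kb to the right.

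Other receptor genes with runs included NTRK3 and ROR2. This pair and the groups of genes that follow were put together by function after the names had been seen, and they are not full lists. NTRK3, the receptor of neurotrophin 3, had 20 H82 and 2 H146 regions, and its run of 24 regions extended over 618 kb (chr15:87623952-88241707), with 18 regions in the gene and the rest beside it. ROR2, a receptor of WNT5A, had 41 H82 and 7 H146 regions, 22 of them in a run of 161 kb that lay wholly in introns (chr9:91786437-91947021). Both genes had a region at the TSS in both lines.

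PRDM16, a zinc finger regulator that carries a methyltransferase-type PR domain, was covered by 3 runs in a row. The first held 35 regions over 202 kb (chr1:2931219-3133143), beginning before the gene and holding ACTRT2 as well. The next held 16 over 103 kb (chr1:3166632-3269582) and the last 24 over 128 kb (chr1:3276351-3404455). Between them lay 33.5 kb with 2 H146 regions and 6.8 kb with 1. PRDM16 as a whole had 77 H82 regions, 58 of them in runs, and 7 H146 regions, and its TSS had a region in H82 alone. Regions here were narrow, with medians of 275, 287 and 272 bp, and rich in GC (64.5%, 64.1% and 62.3%).

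PAX7, a paired-box factor of neural crest and muscle stem cells, had 20 H82 regions, all inside a run of 31 regions over 186 kb (chr1:18628538-18814702), and 0 H146 regions. Its TSS lay in the span with no H82 region within 1 kb, and the 31 regions were intronic (20) or intergenic (11). A run of 24 regions at IGSF21 and KLHDC7A (chr1:18282972-18580251) ended 48.3 kb before it, with 3 H146 regions in between. OLIG2 and OLIG1, the basic helix-loop-helix factors of oligodendrocytes and motor neuron precursors, shared a dense run of 21 regions over 76.1 kb (chr21:33021202-33097343) of which 20.5% was covered. Both had an H82 region at the TSS and none in H146. The nearest H146 region was 1.06 kb to the left of this run.

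**Figure D4:**
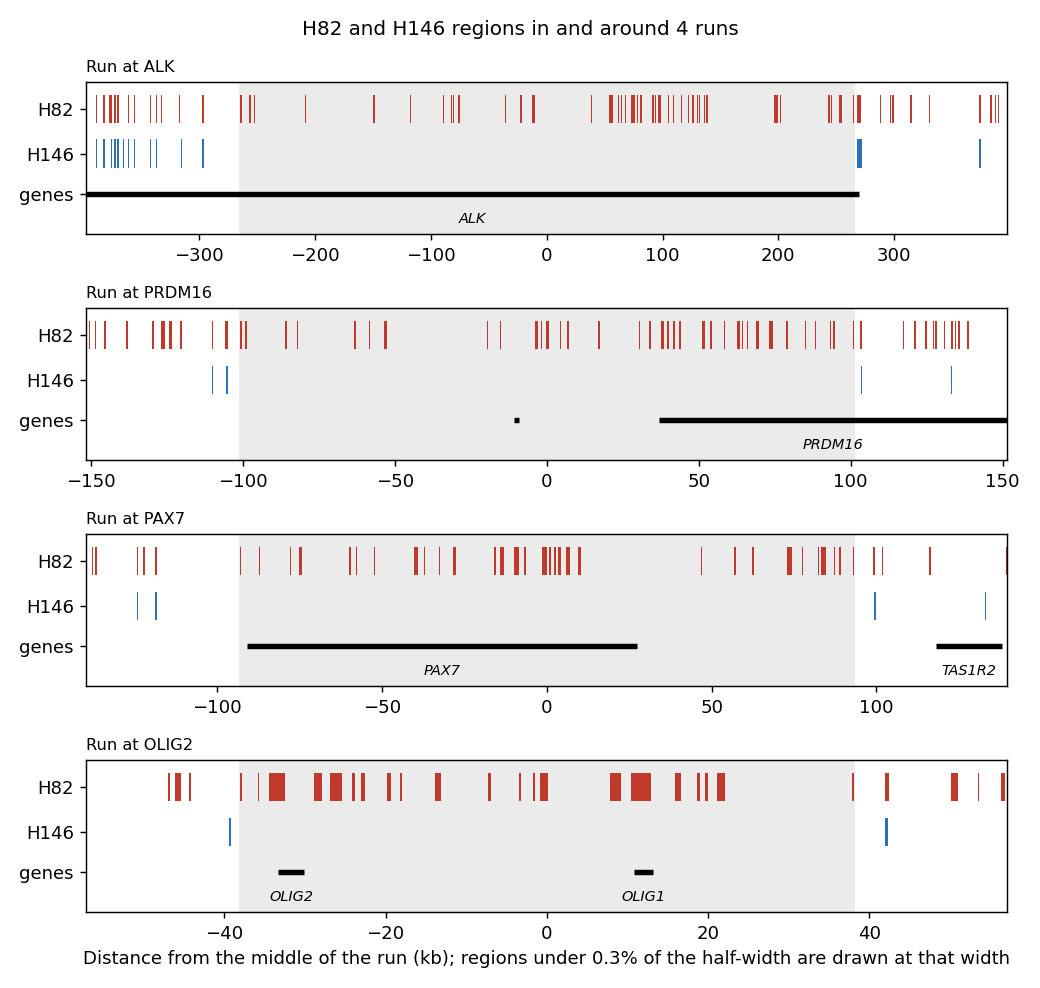
H82 regions (upper ticks), H146 regions (lower ticks) and protein-coding genes (bars) by distance from the middle of the run (kb), for the runs at ALK, PRDM16, PAX7 and OLIG2, shaded over the span of each run. Regions narrower than 0.3% of the half-width of the plot are drawn at that width; H146 regions are absent from the 4 shaded spans and resume on both sides.

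Further transcription factor genes with runs included EBF1, SIM2, ZNF536, ZNF217, RORB, SKI and PRDM6. EBF1, known from B cells and neurons, had 23 H82 regions and 1 H146 region, with 21 in a run of 373 kb. SIM2, a basic helix-loop-helix PAS factor, had 18 and 1, with 17 in a run of 72.6 kb. The neural gene ZNF536 had 31 and 5, with 23 in its run, and no region at the TSS in either line. SKI, a repressor of TGF-beta signalling, had 21 and 4. The nuclear receptor gene RORB had 12 and 5, with 8 of its H82 regions in the run and 4 outside it, fewer than the 5 of H146. ZNF217 had its TSS in a run of 24 regions over 317 kb (chr20:53596620-53913163), but 18 of the 24 were intergenic and 1 was in the gene. Neither line had a region within 1 kb of that TSS, and ZNF217 held 2 H146 regions outside the run. PRDM6 had 9 H82 regions and 0 H146 regions, and an H82 region at the TSS. It shared a run of 26 regions over 603 kb (chr5:122584724-123187249) with SNX2 and SNX24, of the sorting nexins, and PPIC, a cyclophilin. SNX2, PPIC and PRDM6 had an H82 region at the TSS and SNX24 had none.

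Several hosts were genes of neuronal adhesion, guidance and synapses. The share of such genes among all genes, or among genes as long, was not counted. APBA2, an adaptor that binds the amyloid precursor protein, had 30 H82 and 2 H146 regions, 28 of them in a pair of runs 39.9 kb apart, of 32 regions (chr15:28762700-29062357) and 22 regions (chr15:29102276-29230941). Its TSS had a region in H82 alone. SHISA6, a partner of AMPA receptors, had 16 H82 regions and 0 in H146, and lay in a run of 681 kb. The H146-free interval around that run, 722 kb, would hold 63.5 H146 regions at the density of chromosome 17. ST8SIA2, which builds polysialic acid on NCAM1, had 15 and 1, and the neuronal migration gene ASTN1 had 36 and 7. In very long genes the run was a smaller part: NTM had 14 of 86 H82 regions in its run, TENM2 19 of 71, MAGI2 16 of 65, PTPRT 20 of 41 and SLIT3 12 of 44. H146 regions in these genes numbered 71, 43, 25, 9 and 13, so H146 had regions elsewhere in each of these genes. The runs at NTM and SLIT3 reached beyond the gene, over its TSS.

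Kinases and other enzymes made up the next group. DAPK1, a calmodulin-regulated kinase linked to cell death, had 22 H82 and 0 H146 regions and a TSS region in H82 alone. Its run, second by number of regions, held 37 over 588 kb (chr9:87160570-87749038) and reached CTSL, the lysosomal protease cathepsin L, which also had a TSS region in H82 alone. AGBL1, a carboxypeptidase of the tubulin-trimming family, had 62 H82 and 33 H146 regions, and its run of 33 (chr15:85910741-86215458) held 16 regions in introns, 16 in intergenic DNA and 1 at the promoter. ERCC6L2, a helicase-like gene of DNA repair, had 13 and 0 regions in a run of 29 over 515 kb (chr9:95704565-96219799), with no region at the TSS in either line. ATP10A, a lipid flippase, had 15 and 0. The phosphodiesterase genes PDE1C (51 and 9) and PDE9A (31 and 6), the kinase genes ROCK1 (52 and 9) and TNIK (50 and 12), and the histone enzymes DOT1L (23 and 5) and KDM4B (56 and 9) each had a region at the TSS in both lines.

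Runs without a protein-coding gene included long ones. The sixth by number of regions held 32 over 535 kb of chromosome 12 (chr12:114913882-115448757), 30 of them intergenic, and the ninth held 30 over 301 kb of chromosome 20 (chr20:24166652-24468010). The longest span of all was 1215 kb on chromosome 5 (chr5:164351148-165566279), with 20 regions, 18 of them in long noncoding RNA genes, and the lowest covered share, 0.732%. The shortest span was its opposite: 17 regions within 31.8 kb at PDXK, the kinase of vitamin B6, and CSTB, a cysteine protease inhibitor (chr21:43742973-43774727), with 44.9% covered.

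Promoters were few in the runs. A TSS here was the 5′ end of the gene, so a start further inside it was not counted. Of the 18495 protein-coding TSSs, 69 lay in a span (0.373%), and 26 of the 69 (37.7%) had an H82 region within 1 kb, against 15010 of all 18495 (81.2%). The rule bars a TSS that has an H146 region, so 0 of the 69 had one, and the low share in H82 follows in part from leaving out TSSs open in both lines. The PRAME family run held 30 of the 69, of which 3 had an H82 region. In the 22 other runs with a TSS it was 23 of 39 (59.0%). No protein-coding TSS lay in the remaining 49 runs, 36 of which overlapped a gene. Seen from the genes, 42 had their TSS outside every run, and in 35 of these 42 both lines were open at the TSS.

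No gene of the lists for SCLC had its TSS in a run: 0 of 11 neuroendocrine genes, 0 of 8 low-neuroendocrine genes and 0 of 13 genes known for copy-number change in SCLC, and none of these overlapped a span. The same held for 18 large fragile-site genes, 63 protocadherins, 152 keratins and 6 PRR20 genes. Of all 18495 protein-coding TSSs 0.373% lay in a span, so a count of 0 is near the background for lists of this size. Genes on chromosomes 14 and X, CHGA and SYP among them, were not counted. Of 500 zinc finger genes named ZNF, 2 had the TSS in a run (ZNF438 and ZNF217), a share near that of all genes. Members came from clustered families in 3 cases: 22 of 23 PRAME family genes (95.7%), 6 of 19 SPDYE genes (31.6%) and 5 of 388 olfactory receptor genes (1.29%; OR5H1, OR5H14, OR5H15, OR5H6 and OR5H2). The 22 PRAME genes were in 1 run and the 5 olfactory receptors in another, so each cluster counts as 1 place in the genome rather than as many genes.

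Sequence that recurs in the reference concerned a few runs. Reads from copies of the same sequence cannot be assigned to one of them with certainty, so where such regions lie, and whether H146 lacks them, is uncertain. Over all run regions, 11.6% of 31-base words occurred elsewhere in the reference as well, against 15.1% in other H82 regions absent in H146. The median run had 4.94%, 8 runs had 20% or more and 4 had 50% or more. The runs at SPDYE13, SPDYE14 and SPDYE15 (20 regions, 100.0%) and at SPDYE8, SPDYE11, SPDYE9 and SPDYE10 (30 regions over 106 kb, 99.3%) consisted of little else. SPDYE genes encode activators of cyclin-dependent kinases of the Speedy family. A run of 18 regions with no protein-coding gene on chromosome 13 (chr13:18234414-18317883) had 62.3%. The PRAME family run (35 regions over 908 kb, chr1:12676265-13583987), had 52.0%, had narrow regions (median 288 bp) and was the sole run with unknown bases in the reference (50000). Of its protein-coding genes, PDPN, LRRC38 and PRAMEF18 had an H82 region at the TSS, while AADACL3 and CFAP107 had none there. The run with APBA2 and GOLGA6L7 stood at 20.6%.

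Runs were spread unevenly over the chromosomes. Chromosome 1 had 16, chromosome 15 had 9, chromosome 9 had 8, chromosome 5 had 7, chromosome 21 had 6 and chromosome 20 had 5, which makes 51 of the 72. Chromosomes 6, 8, 16 and 22 had 0. Chromosomes 15 and 21 also had the highest shares of H82 regions absent in H146 (58.5% and 62.5%) and the most H82 regions for each H146 region (1.80 and 1.88). At the other end, 11.2% of H82 regions on chromosome 18 were absent in H146 (0.789 H82 regions for each H146 region), and its 1 run lay in introns of ROCK1, with 18 regions over 70.4 kb. On chromosomes 6, 8, 16 and 22, which had 0 runs, the share was 30.5%, 30.4%, 33.1% and 45.6%. It was 51.8% on chromosome 1 and 40.3% over all the chromosomes used.

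**Figure D5:**
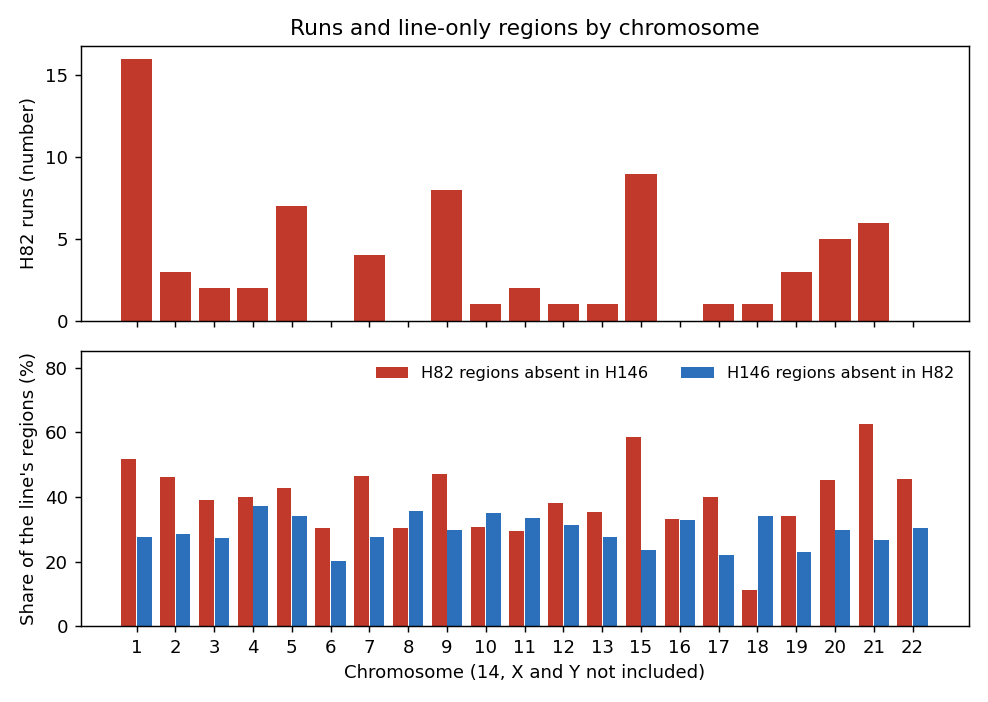
Number of H82 runs per chromosome (upper bars) and the share of each line's regions that the other line lacks (%, lower bars). Chromosomes 15 and 21 have the highest H82 shares (58.5% and 62.5%) and chromosome 18 the lowest (11.2%).

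The H146 regions that closed the runs were examined last. The 144 ends rested on 141 H146 regions, since 3 of them parted neighbouring runs and closed both. Of the 141, 126 (89.4%) were shared with H82, whereas shared regions were 70.6% of the H146 atlas, and 15 (10.6%) were absent in H82. Shared regions that closed a run had a median width of 462 bp, against 661 bp for all shared H146 regions, and 17 of the 126 (13.5%) were at promoters, against 10.7%. The rule picks the closing regions by their place beside stretches of H82 regions. Their shares and widths are thus not independent of it. The nearest H146 region lay a median of 8.37 kb to the left and 4.89 kb to the right. There were 8 pairs of neighbouring runs within 200 kb of each other. In 3 of them 1 H146 region was all that parted the runs: between the last 2 runs of PRDM16, at HPGDS and PDLIM5 (7.9 kb apart), and between the PRDM6 run and that of CEP120 and CSNK1G3 (77.0 kb apart). How many runs there were therefore depended on lone H146 calls at such places.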

How the data were processed

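ATAC-seq was performed on 13 libraries from 2 lines. The authors trimmed paired reads (Trim Galore 0.4.4), aligned them to hg38 (bowtie2 2.3.4), discarded duplicates (Picard), called peaks per sample (MACS2), removed blacklisted regions and joined peaks of a line within 500 bp into 1 atlas. The deposited values are region starts and ends in bp, with no counts, and other per-sample columns numbered 0. Depth per library is unknown, and so is the sampling error. Whether reads were shifted for the Tn5 cut is not given in the sources used here. Coordinates are printed 1-based.

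Runs were found in Python 3.11.15, and overlaps differed from those of bedtools 2.31.1 for 0 regions. The search was tested on simulated data. Genes came from GENCODE release 44, the TSS being the 5′ end of the gene, and promoters reached 1 kb to either side. Recurring sequence was the share of 31-base words found more than once in hg38 on either strand. The 12 runs with the most regions, those of extreme span or covered share, and list genes with the TSS in a run were named by rule (up to 5 genes in a run); other genes were named after their values were seen. The members and lists were chosen with earlier results of these data known. Some items are not reported here. Alternatives were another minimum length, width limit, distance, atlas size and set of chromosomes.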

Additional observations from a re-analysis of the deposited data

How the results depend on the processing

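No paired analysis was possible because each atlas pools the libraries of its line, so the replicate numbers of the labels have no values, and leaving out single libraries could not be run for the same reason. With a minimum of 10 regions there were 306 H82 runs with 4124 regions and 9 H146 runs with 102 regions, and with a minimum of 20 there were 34 H82 runs with 873 regions. Regions of at least 500 bp gave 40 H82 runs with 745 regions, of which 283 were members of the runs reported, since leaving out narrow H146 regions joins other stretches. When the H82 atlas was cut to its 165752 widest regions, as many as H146 has, there were 43 H82 runs with 832 regions, all of them members, and 2 H146 runs with 34 regions; this setting also removed all H82 regions under 247 bp, so atlas size and width cannot be told apart in it. The other alternatives gave 56 to 94 H82 runs and 0 H146 runs. The 56 runs came with regions of at least 300 bp. They held 1070 regions, of which 682 were members of the runs reported, so part of the membership changed. Adding chromosomes 14 and X brought 17 and 5 further H82 runs. Leaving out H82 regions with 50% or more recurring words, chosen after seeing the data, left 63 runs with 1277 regions. Over all 10 alternatives the median width was 396 to 836 bp and the median gap 3.77 to 11.20 kb, both highest with regions of at least 500 bp. Region lists limit what can be read: peak height, depth, copy number and the effect of FHD-286 are not in them.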
